A study of Mus musculus with 8 samples.

Results

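The distal colons of mice that carry Hsf1 (WT) were compared with those of mice that lack it (Hsf1 null) at day 15 of a model of inflammation-driven colon cancer. The samples were chosen by their labels, as the libraries named day 15 WT and day 15 KO, which gave 4 of the 8 mice of the series, with 2 mice per genotype. The other 4 mice, 2 per genotype, were untreated (day 0) and are used here only as a background. All the mice were males of mixed BALB/c and 129SvEV descent and were 10 weeks old, and the null allele is a germline deletion present in every tissue, so that the epithelium, the stroma, the immune cells and the rest of the body all lacked the gene. The day 15 mice of both genotypes had received 1 intraperitoneal injection of azoxymethane (AOM), a carcinogen, at 10 mg/kg and 8 weeks of age, and from day 7 had 1.5% dextran sulfate sodium (DSS) in their drinking water for 5 days. DSS damages the epithelial lining of the colon. The day 15 in the sample names is counted from the injection. RNA was taken from pieces of whole distal colon and read as polyA mRNA, so that a lower level of a gene can mean fewer cells of a type or less RNA per cell, and these cannot be told apart. The mice were separate animals. The p-values rest on a spread estimated from the replicate mice of all 4 groups and moderated across genes, not on the 2 mice of a genotype alone.

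HSF1 (heat shock factor 1) is the transcription factor that switches on molecular chaperones when proteins misfold. It binds heat shock elements, which are inverted repeats of the letters GAA, as a trimer. Outside the heat shock response it is known to act in fibroblasts of tumours and of inflamed tissue, where it turns on matrix and signalling genes. After DSS injury the colon loses surface epithelium and fills with neutrophils and monocytes, secreted acute phase proteins rise, and the epithelium then regrows from the crypts.

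Levels are given as CPM (counts scaled to a common library size, with the trimmed mean of M values), in the order of replicate 1 and replicate 2 of each genotype. Values in parentheses after the levels are log2 fold changes of WT minus null ± the standard error (SE) from the quasi-likelihood test of edgeR, fitted to all 8 mice, and p-values are adjusted over all genes tested. A gene is called higher or lower in WT at an adjusted p under 0.05 and a log2 fold change beyond 1 in either direction. The day 15 libraries held 7379442 to 11097367 counts and the whole series 2553348 to 12440257. Hsf1 itself was at 50.5 and 45.9 CPM in WT against 13.5 and 9.09 CPM in Hsf1 null (2.10 ± 0.30, adjusted p = 0.0137). The genotypes did not overlap, which goes with the labels, and the reads left in the null mice came to 4.27-fold fewer than in WT. All the day 15 samples held epithelium, as the pan-epithelial adhesion gene Epcam was at 1248 and 1121 CPM in WT against 1931 and 1899 CPM in Hsf1 null.

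Of 14371 genes tested, 455 were called (3.17%), 180 of them higher in WT (1.25%) and 275 lower (1.91%). The median log2 fold change of all genes was 0.03, and 7489 of the 14371 were above 0. The counts in the lists below are to be read beside these shares. At day 0 no gene was called between the genotypes by edgeR (0%), with 904 genes at an unadjusted p under 0.05, against 3332 at day 15. The genotypes did not overlap in any of the 455 called genes, but with 2 mice against 2 they did not overlap in 54.8% of all genes either. The count changed with single mice. It was 19 without WT replicate 2, 345 without WT replicate 1, 30 without null replicate 1 and 871 without null replicate 2, and a fit to the day 15 mice alone, which estimates the spread from those 4 mice, called 6. As the genotypes did not overlap in any called gene, a kept direction in these fits was nearly certain in advance. The 175 called genes named in the text all kept theirs. Of them 162, 74, 157 and 26 lost their call without WT replicate 2, WT replicate 1, null replicate 1 and null replicate 2. The genotype difference differed between day 15 and day 0 for 1 gene (0.00696%).

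**Figure D1:**
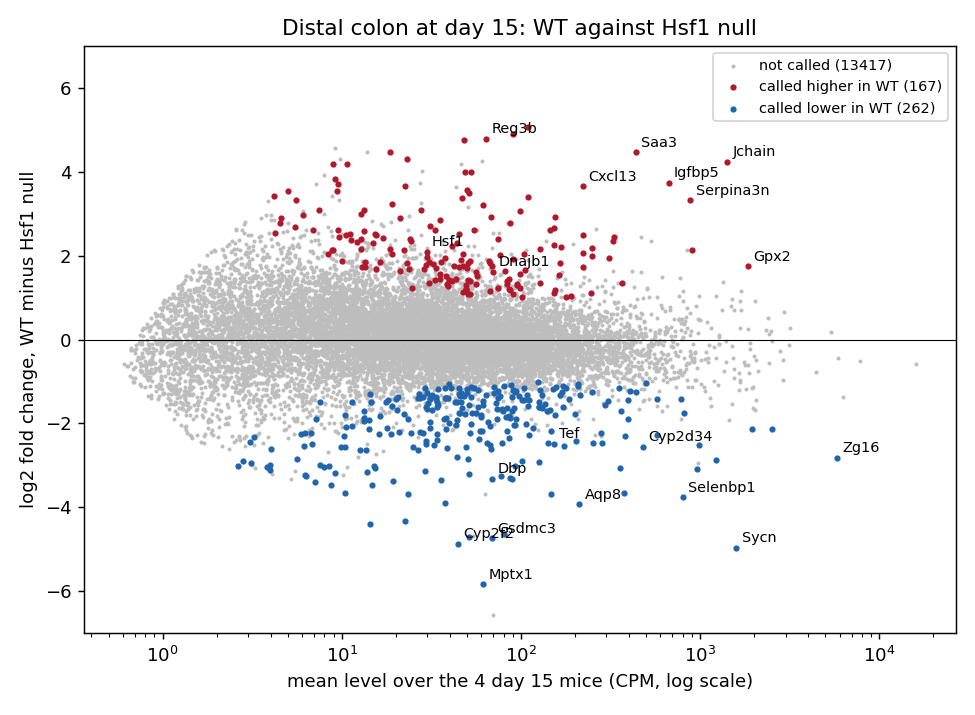
Each point is a gene, with the mean level over the 4 day 15 mice in CPM (log scale) on the x axis and the log2 fold change of WT minus Hsf1 null on the y axis, and red and blue points are the genes called higher or lower in WT. Genes with under 10 counts in a genotype are left out, among them 26 of the 455 called genes. The labelled genes above 0 are secreted defence and matrix genes, a plasma cell gene and a chaperone, and those below 0 are genes of the mature epithelium and the clock.

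The chaperones that HSF1 is known to induce were the first group examined. Of 26 members tested, 3 were called higher in WT and none lower, and 23 had a log2 fold change above 0, with a median of 0.80 against 0.14 for the same genes at day 0. Dnajb1, the co-chaperone that recruits HSP70 to its substrates, was at 78.6 and 133 CPM in WT against 37.1 and 31.8 CPM in Hsf1 null (1.62 ± 0.30, adjusted p = 0.0277). Ahsa1, which speeds the ATPase cycle of HSP90, was at 58.3 and 80.3 CPM in WT against 31.6 and 28 CPM in Hsf1 null (1.22 ± 0.26, adjusted p = 0.0385). Ubb, a polyubiquitin gene, was at 82.3 and 75 CPM in WT against 29 and 15.2 CPM in Hsf1 null (1.83 ± 0.33, adjusted p = 0.024). In these 3 genes both WT mice stood above both null mice, as in every gene called higher. The other chaperones missed the test. The inducible HSP70 gene Hspa1b was at 15.1 and 108 CPM in WT against 8.69 and 15.2 CPM in Hsf1 null (2.35 ± 0.71, adjusted p = 0.0942), so that 1 WT mouse was high while the other reached the level of the null mice. Its near-identical copy Hspa1a, whose reads can be split between both genes, had the same pattern at 10.4 and 73.5 CPM in WT against 5.43 and 12 CPM in Hsf1 null. Hsph1, a nucleotide exchange factor for HSP70, was at 28.4 and 94.3 CPM in WT against 16 and 19.4 CPM in Hsf1 null (1.79 ± 0.47, adjusted p = 0.0665). The constitutive Hspa8 was at 901 and 1313 CPM in WT against 389.9 and 607 CPM in Hsf1 null (1.15 ± 0.31, adjusted p = 0.0704). The mitochondrial pair Hspd1 and Hspe1 had log2 fold changes of 0.39 and 0.67, with adjusted p-values of 0.549 and 0.337. The constitutive Hsp90ab1 was at 2557 and 2523 CPM in WT against 2259.6 and 2404 CPM in Hsf1 null, a log2 fold change of 0.12. Among 18 chaperones of the endoplasmic reticulum and their regulators, 1 was called, the transcription factor Xbp1 at 543 and 509 CPM in WT against 206 and 208 CPM in Hsf1 null (1.35 ± 0.25, adjusted p = 0.028).

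The RefSeq promoters of these genes (GRCm38.p6) were searched for letters that HSF1 can bind, and a match is not a measured binding site. A full heat shock element, with 3 units of GAA or its inverse TTC that alternate and stand 2 bases apart, was searched on both strands in the 250 bases before the start site of the 10890 tested genes with an entry. It was present in 0.432% of them, in none of the 130 entries of genes called higher in WT and in none of the 201 of genes called lower. With a share this low over all genes, none among 130 or 201 entries cannot show a lack of the element. Hspd1 and Hspe1, which face each other across 1 shared promoter, held it as a pair of overlapping matches. A shorter form of 2 repeats (GAANNTTC or TTCNNGAA), which is part of the full element, was found in 12.1% of all promoters, in 11.5% of those of genes called higher and in 12.4% of those called lower. The windows below show these matches for 6 chaperones in the direction of each gene, with the motif in capitals. Dnajb1 and Ubb held neither form in this window, and neither did Ahsa1. Elements further away, or that depart from these letters, were not searched.
Hspe1 (chr1:55088051-55088079, plus strand, motif starting 89 bases before the start site): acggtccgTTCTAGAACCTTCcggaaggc
Hspd1 (chr1:55088056-55088084, minus strand, motif starting 144 bases before the start site): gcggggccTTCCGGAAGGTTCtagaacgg
Hspa1b (chr17:34959324-34959353, minus strand, motif starting 104 bases before the start site): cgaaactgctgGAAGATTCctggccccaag
Hspb1 (chr5:135887791-135887820, plus strand, motif starting 117 bases before the start site): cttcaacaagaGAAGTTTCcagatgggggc
Hsph1 (chr5:149636351-149636380, minus strand, motif starting 33 bases before the start site): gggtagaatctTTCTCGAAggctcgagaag
Dnaja1 (chr4:40722333-40722362, plus strand, motif starting 124 bases before the start site): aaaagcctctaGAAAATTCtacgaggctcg
The window of Hspa1a holds the same 30 letters as that of Hspa1b. Of these 6 genes none was called, and their log2 fold changes ran from 0.39 in Hspd1 to 2.35 in Hspa1b.

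Acute phase genes, which encode serum proteins that rise in inflammation, were among the groups with the highest share of calls. Of 17 tested, 7 were called higher in WT and none lower, with a median log2 fold change of 2.28 (0.54 at day 0). Saa3, the serum amyloid A gene made locally in inflamed tissue, was at 489.7 and 1185 CPM in WT against 35.2 and 40.4 CPM in Hsf1 null, a 22.1-fold difference (4.47 ± 0.45, adjusted p = 0.00631). Serpina3n, an inhibitor of granule proteases, was at 1792 and 1406 CPM in WT against 74.1 and 244 CPM in Hsf1 null (3.33 ± 0.50, adjusted p = 0.0183). Its cluster neighbours were called too. Serpina3m was at 113 and 72.2 against 2.33 and 4.41 CPM and Serpina3g at 45.5 and 195 against 11.6 and 20.2 CPM. Serpina3h, which the list of 17 does not hold, was at 68.6 and 103 against 8.38 and 8.02 CPM. Of 14 genes with the stem Serpina 4 were called higher and 1 lower, Serpina9, which had 7 and 1 counts in the WT mice and 83 and 32 in the null mice. These neighbours are close copies of each other, so that reads could be split among them. The haemoglobin-binding protein Hp was at 90.8 and 98.3 CPM in WT against 5.12 and 11.6 CPM in Hsf1 null (3.49 ± 0.54, adjusted p = 0.0188). Lrg1, a leucine-rich glycoprotein that acts on vessels, was at 297 and 105 CPM in WT against 16.1 and 21.9 CPM in Hsf1 null (3.40 ± 0.61, adjusted p = 0.0242). The lipopolysaccharide-binding protein Lbp was at 54.4 and 46.6 against 8.38 and 20.5 CPM (1.80 ± 0.40, adjusted p = 0.0446). In all of these called higher the lower WT mouse was above the higher null mouse, as in every gene called higher. Saa1 went against the group, at 417 and 248 CPM in WT against 1892 and 586 CPM in Hsf1 null (−1.90 ± 0.51, adjusted p = 0.0685), and did not pass the test.

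Socs3, the feedback inhibitor of STAT3 signalling that acute phase cytokines induce, was at 89.9 and 133 CPM in WT against 11.5 and 12.7 CPM in Hsf1 null, and both WT mice were far above both null mice (3.20 ± 0.34, adjusted p = 0.00631). It was 1 of 4 cytokine receptor and signalling inhibitor genes called among 39 tested, all higher in WT, with a median of 0.78 in the group (0.40 at day 0). The others were the interleukin 1 receptor Il1r1, the shared receptor chain Csf2rb2 and the TNF receptor Tnfrsf1b. Csf2rb2 was at 10.8 and 34.9 CPM in WT against 3.26 and 4.28 CPM in Hsf1 null (2.59 ± 0.60, adjusted p = 0.049). Tnfrsf1b was at 191 and 296 CPM in WT against 68.9 and 98.8 CPM in Hsf1 null (1.54 ± 0.34, adjusted p = 0.0442). The palindrome that STAT factors bind (TTCNNNGAA) was present in the 250 bases before the start site of 7.42% of all tested genes with an entry, of 12.3% of those called higher in WT and of 5.97% of those called lower. Its spacing differs from that of the heat shock element, so that the same letters cannot match both, although 2 matches can overlap. It is shown here in capitals for 5 of the 16 genes called higher in WT that held it, which were picked for display.
Socs3 (chr11:117969502-117969530, minus strand, motif starting 154 bases before the start site): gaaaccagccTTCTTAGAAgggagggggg
Reg3b (chr6:78370746-78370774, plus strand, motif starting 129 bases before the start site): agcctgttctTTCTTGGAAactctttgag
Serpina3g (chr12:104236104-104236132, plus strand, motif starting 33 bases before the start site): taagttatagTTCCCAGAAatcacccggt
Il1r2 (chr1:40085972-40086000, plus strand, motif starting 111 bases before the start site): cgggtgctttTTCAAGGAActtccgacta
Csf2rb2 (chr15:78305722-78305746, minus strand, motif starting 15 bases before the start site): gtgtccacaaTTCTGAGAAgcaagc
A match of these letters is a description and not a measured binding site.

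Among 15 cytokines tested, 3 were called higher in WT and none lower, with a median log2 fold change of 1.80 (0.20 at day 0). Il1b, the interleukin of activated myeloid cells, was at 11.6 and 72.6 CPM in WT against 1.86 and 4.68 CPM in Hsf1 null, with WT replicate 2 far above WT replicate 1 and both above the null mice (3.66 ± 0.83, adjusted p = 0.046). Il33, an alarmin of stromal and epithelial nuclei, was at 9.74 and 59.2 CPM in WT against 3.57 and 3.74 CPM in Hsf1 null (3.23 ± 0.71, adjusted p = 0.0443), with WT replicate 2 again the high one. Csf3, the neutrophil growth factor, had 73 and 140 counts in the WT mice and 0 and 1 in the null mice. Of 29 chemokines 5 were called higher and none lower (median 1.92, and 0.65 at day 0), and all 5 belong to the Cxcl genes, of which 11 were tested. Among them were 3 neutrophil attractants. Cxcl1 was at 12.9 and 21.4 CPM in WT against 0.465 and 1.87 CPM in Hsf1 null (3.83 ± 0.72, adjusted p = 0.0276). Cxcl2 was at 6.26 and 15.4 against 1.24 and 1.47 CPM. Cxcl5 was at 48.2 and 136 CPM in WT against 1.24 and 10.2 CPM in Hsf1 null (3.99 ± 0.82, adjusted p = 0.0357). The B cell attractant Cxcl13 was at 421 and 397 CPM in WT against 19.5 and 45.1 CPM in Hsf1 null (3.66 ± 0.59, adjusted p = 0.021), a gene with little spread within WT, and Cxcl12 also passed.

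Neutrophil genes followed with 8 of 23 called higher in WT and none lower, with a median of 3.98 (0.19 at day 0), or 3.68 when members with few counts are set at the bound that 3 counts allow. Their summed level was 1237 to 1945 CPM in WT and 735 to 1079 CPM in the null mice. Most of the sum in the null mice came from 1 member, Cd177. Retnlg, a secreted resistin-like protein of granulocytes, was at 21.7 and 66.5 CPM in WT against 1.55 and 2.81 CPM in Hsf1 null (4.32 ± 0.68, adjusted p = 0.0198). The decoy receptor Il1r2 was at 8.96 and 25.6 CPM in WT against 0.620 and 2.27 CPM in Hsf1 null (3.54 ± 0.72, adjusted p = 0.0342). The granule gene Ngp had 132 and 271 counts in the WT mice and 0 and 0 in the null mice, and Stfa2, a cysteine protease inhibitor of neutrophils, had 32 and 114 counts in the WT mice and 1 and 1 in the null mice. Cd177, which is also made by colon epithelium, did not follow them, at 752 and 567 CPM in WT against 627 and 859 CPM in Hsf1 null. WT replicate 2 was the higher of the WT mice in most of these genes, and the summed levels of the inflammatory lists were also higher in it.

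Complement genes had 7 of 24 members called, all higher in WT (median 1.70, and 0.52 at day 0). C1qa, a chain of the recognition molecule made by macrophages, was at 206 and 212 CPM in WT against 37.1 and 56.2 CPM in Hsf1 null (2.16 ± 0.31, adjusted p = 0.0137). C4b was at 666 and 455 CPM in WT against 59.9 and 147 CPM in Hsf1 null (2.43 ± 0.43, adjusted p = 0.0237). The protease gene C1s1 was at 119 and 167 against 20.9 and 53.8 CPM. The inhibitor gene Serping1 was at 297 and 518 CPM in WT against 57.1 and 123 CPM in Hsf1 null (2.17 ± 0.40, adjusted p = 0.0265). C3 missed the threshold at 1314 and 1441 CPM in WT against 163 and 463 CPM in Hsf1 null (adjusted p = 0.072). Monocyte and macrophage markers, with 4 of 28 called higher and none lower, summed to 1898 to 3566 CPM in WT and 555 to 1371 CPM in the null mice, and their part in the complement result was not tested. The adaptor Tyrobp was among the 4, at 94.5 and 240.3 CPM in WT against 31.3 and 50.2 CPM in Hsf1 null (2.04 ± 0.47, adjusted p = 0.0476).

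Plasma cell genes were called higher in WT as well. Of 21 B cell and plasma cell markers 6 were called, all higher (median 1.35, and 0.81 at day 0), and the 6 are known from plasma cells and antibody secretion. Jchain, the joining chain of secreted IgA and IgM, was at 2747 and 2615 CPM in WT against 46.8 and 237 CPM in Hsf1 null, an 18.8-fold difference (4.24 ± 0.75, adjusted p = 0.024). The B cell coactivator Pou2af1 was at 148 and 207 CPM in WT against 14.9 and 27.4 CPM in Hsf1 null (3.06 ± 0.45, adjusted p = 0.0161). Of the secretory pathway genes, Derl3 was at 65.5 and 59 against 4.34 and 12.7 CPM and Mzb1 at 107 and 144 against 14 and 33.7 CPM. The plasma cell regulator Prdm1 was at 18.9 and 22.7 against 4.81 and 7.62 CPM (1.73 ± 0.39, adjusted p = 0.0449). The B cell surface marker Ms4a1 was at 6.79 and 38 CPM in WT against 5.27 and 14.2 CPM in Hsf1 null and was not called (adjusted p = 0.433). The summed level of the list was 4818 to 5545 CPM in WT and 1282 to 1529 CPM in the null mice. T cell and natural killer markers had a median of 1.29, against 0.91 at day 0. Of 26 tested, 1 was called (3.85%, against 3.17% of all genes), the inhibitory receptor Ctla4 at 7.13 and 11.7 against 2.02 and 0.936 CPM. The T cell receptor chain Cd3e was at 25.5 and 33.7 against 13.8 and 20.1 CPM and was not called. Of 10 mast cell and eosinophil genes 1 was called, the histidine decarboxylase Hdc, at 5.13 and 15.2 CPM in WT against 0.931 and 1.07 CPM in Hsf1 null (3.32 ± 0.73, adjusted p = 0.0442).

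Interferon-induced genes stood apart from the other inflammatory lists. None of 46 was called, and the genotypes did not separate, with list medians on the centred log2 scale of −0.67 and 1.44 in the WT mice and 0.10 and 0.10 in the null mice. MHC class II and antigen presentation genes had 0 of 25 called higher and 1 lower (4.0%, against 3.17% of all genes). The 1 was the class I gene H2-Q1, at 19.7 and 22.5 CPM in WT against 107 and 62.2 CPM in Hsf1 null (−2.0 ± 0.29, adjusted p = 0.0149). In both lists WT replicate 2 was the highest mouse and WT replicate 1 the lowest.

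**Figure D2:**
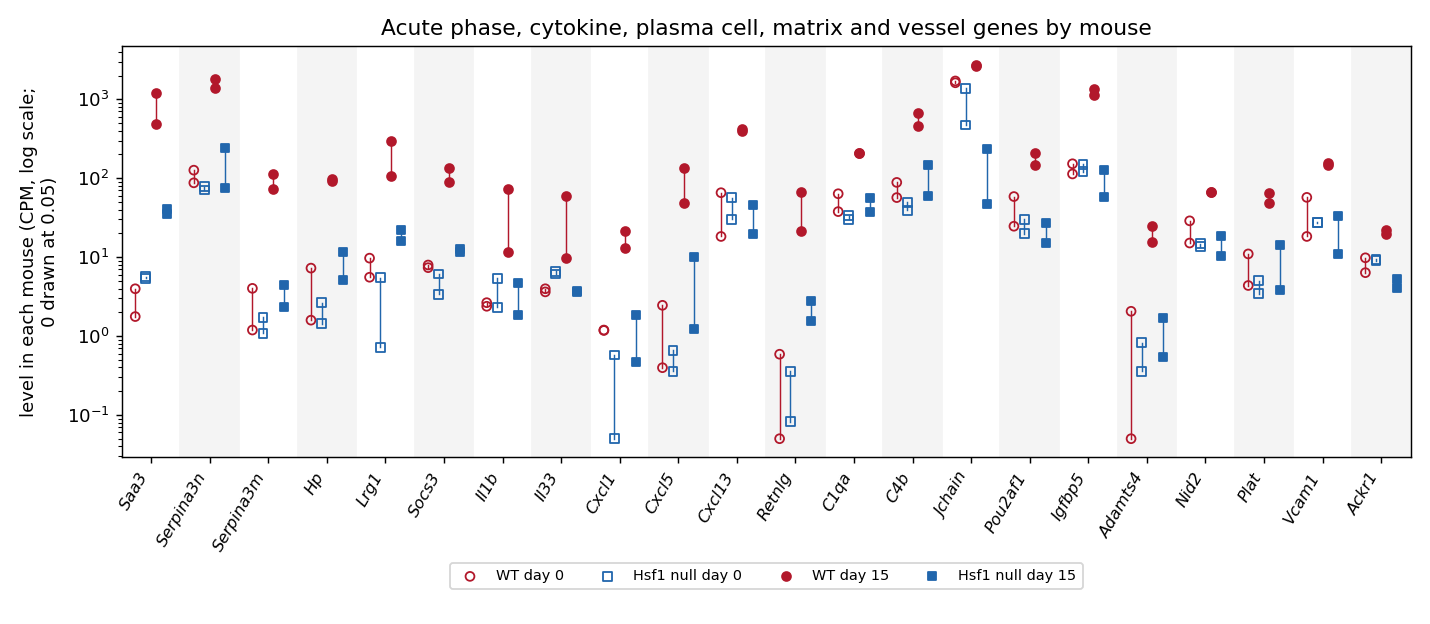
Levels in CPM (log scale) of 22 genes are plotted for every mouse, with open symbols for day 0, filled symbols for day 15, red circles for WT and blue squares for Hsf1 null, and a line joins the 2 mice of a group. In each gene the filled red circles lie above the filled blue squares, and for Saa3 they are at 489.7 and 1185 CPM against 35.2 and 40.4 CPM.

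Matrix genes were mostly higher in WT without passing the test. Of 49 matrix glycoproteins 43 had a log2 fold change above 0 (median 0.92, and 0.73 at day 0). Only 2 were called (4.08%, against 3.17% of all genes), both binding proteins of insulin-like growth factors. Igfbp5 was at 1148 and 1331 CPM in WT against 58.2 and 128 CPM in Hsf1 null, with a narrow range in WT and a 13.3-fold difference (3.73 ± 0.40, adjusted p = 0.00631). Igfbp4 was at 1362 and 1557 CPM in WT against 165 and 498 CPM in Hsf1 null (2.14 ± 0.47, adjusted p = 0.0442). Of 31 collagens 21 were above 0 (median 0.97, and 0.47 at day 0) and 1 was called (3.23%), Col18a1. The fibrillar Col1a1 was at 802 and 603 CPM in WT against 152 and 457 CPM in Hsf1 null (1.21 ± 0.72, adjusted p = 0.34), and null replicate 2 came close to the lower WT mouse. Among 15 laminins, nidogens and perlecan 2 were called higher, Lama1 and the basement membrane linker Nid2, at 67.8 and 67.7 CPM in WT against 10.4 and 18.6 CPM in Hsf1 null (2.22 ± 0.38, adjusted p = 0.0225). No proteoglycan of 15 and no integrin of 25 was called.

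Of 44 matrix proteases and inhibitors 4 were called higher in WT and none lower (median 1.20, and 0.65 at day 0). The aggrecanase Adamts4 was at 15.7 and 24.8 CPM in WT against 1.71 and 0.535 CPM in Hsf1 null (4.18 ± 0.82, adjusted p = 0.0315). The related Adamts1 was at 19.4 and 30.3 against 2.95 and 7.09 CPM. The gelatinase Mmp2 was at 457 and 260.4 CPM in WT against 44.5 and 127 CPM in Hsf1 null (2.06 ± 0.46, adjusted p = 0.0446). Plat, the tissue plasminogen activator, was at 48.5 and 65.5 CPM in WT against 3.88 and 14.4 CPM in Hsf1 null (2.62 ± 0.58, adjusted p = 0.0442). Of 24 genes of collagen maturation 2 were called higher (median 1.12, and 0.65 at day 0), the lysyl hydroxylase Plod1 and the transglutaminase Tgm2. Plod1 was at 69.9 and 81.2 against 25.1 and 31.8 CPM. Tgm2 was at 158 and 345 CPM in WT against 34.1 and 71.7 CPM in Hsf1 null (2.25 ± 0.42, adjusted p = 0.0274). In the TGF-beta and BMP pathway 3 of 38 were called higher (median 0.60, and 0.18 at day 0), the receptors Tgfbr2, Tgfbr3 and Eng. Tgfbr3 was at 139 and 69.3 against 26.4 and 32.8 CPM and Eng at 73.2 and 80.5 against 16.9 and 29.96 CPM.

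Fibroblast markers had 0 of 33 called, with 27 above 0, a median of 0.97 (0.57 at day 0), and summed levels of 6885 to 7415 CPM in WT and 4594 to 6751 CPM in the null mice. The sum includes Acta2, which the smooth muscle list also holds, at 1459 and 948 CPM in WT against 1737 and 2467 CPM in Hsf1 null. Null replicate 2 came close to the WT mice in this sum. Null replicate 1 had the lowest list median of the 4 mice in each matrix, fibroblast and endothelial list. Whether the matrix genes moved with the share of stroma in a piece was not tested. Endothelial markers had 5 of 27 called higher in WT and all 27 above 0 (median 1.28, and 0.17 at day 0), with summed levels of 992 to 1063 CPM in WT and 255 to 441 CPM in the null mice. The leukocyte adhesion molecule Vcam1 was at 156 and 146 CPM in WT against 11 and 32.9 CPM in Hsf1 null (2.78 ± 0.55, adjusted p = 0.0331). The junction cadherin Cdh5 was at 41.3 and 40.1 CPM in WT against 3.88 and 11.9 CPM in Hsf1 null (2.36 ± 0.46, adjusted p = 0.0316). The chemokine receptor of venules Ackr1 was at 21.8 and 19.9 against 4.03 and 5.22 CPM (2.17 ± 0.38, adjusted p = 0.024). Plvap, which forms the diaphragms of fenestrae, was at 117 and 129 against 33.7 and 45.9 CPM. Smooth muscle went the other way. Of 22 contractile genes none was called higher and 2 lower, with 19 below 0 (median −0.75, and 0.11 at day 0) and summed levels of 4699 to 6859 CPM in WT and 9267 to 10453 CPM in the null mice. The calmodulin regulator Pcp4 was at 3.83 and 3.06 against 21.2 and 13 CPM (−2.30 ± 0.41, adjusted p = 0.024). The intermediate filament gene Synm was at 47.8 and 34.3 against 111 and 88.7 CPM (−1.28 ± 0.26, adjusted p = 0.034). Markers of enteric neurons, glia and pacemaker cells had 0 of 27 called.

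Among the genes lower in WT, those of the absorptive colonocyte stood out. Of 48 genes of ion and water transport 8 were called lower and none higher, with 43 below 0 and a median of −0.78 (−0.16 at day 0). The water channel Aqp8 was at 18.6 and 33.4 CPM in WT against 642 and 149 CPM in Hsf1 null, a 15.2-fold difference (−3.93 ± 0.63, adjusted p = 0.021). The phosphate transporter Slc20a1 was at 71.3 and 82.4 CPM in WT against 1015 and 262 CPM in Hsf1 null (−3.05 ± 0.53, adjusted p = 0.023). The colonic proton pump Atp12a was at 168 and 88.8 CPM in WT against 766 and 496 CPM in Hsf1 null (−2.30 ± 0.38, adjusted p = 0.0217). The sulfate transporter Slc26a2 was at 110.1 and 87.6 CPM in WT against 671 and 249 CPM in Hsf1 null (−2.22 ± 0.43, adjusted p = 0.031). The potassium channel genes Kcne3 and Kcnk5, the chloride channel Cftr and the butyrate carrier Slc5a8 were the other 4, with log2 fold changes of −1.70, −1.68, −1.44 and −1.63. In most of them null replicate 1 was above null replicate 2, and both were above the WT mice. The carbonic anhydrase Car4 was at 123 and 325 CPM in WT against 2868 and 579 CPM in Hsf1 null and missed the threshold (adjusted p = 0.0558).

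Among 95 nutrient and organic solute carriers 5 were called lower and 2 higher in WT, with a median of 0.00 (0.13 at day 0). The serotonin transporter Slc6a4 was at 3.65 and 0.528 CPM in WT against 62.7 and 23.7 CPM in Hsf1 null (−4.31 ± 0.68, adjusted p = 0.0202). The peptide carrier Slc15a1 was at 25 and 23.1 CPM in WT against 201 and 63.5 CPM in Hsf1 null (−2.46 ± 0.46, adjusted p = 0.0274). The biotin and pantothenate carrier Slc5a6 was at 25 and 21.1 against 93.7 and 48.3 CPM. The lactate exporter Slc16a3 was called higher, at 86 and 67.2 CPM in WT against 20.6 and 16.9 CPM in Hsf1 null (2.03 ± 0.40, adjusted p = 0.0321). Slc15a2, a kidney-type peptide carrier and the other gene called higher, had 131 and 149 counts in the WT mice and 1 and 3 in the null mice at day 15 and the opposite order at day 0, with 7 and 0 counts in WT and 380 and 53 in the null mice. Among 38 metal transporters and storage genes 2 were called lower and none higher, and the zinc importer Slc39a5 was at 11.2 and 6.55 CPM in WT against 66.7 and 33 CPM in Hsf1 null (−2.48 ± 0.41, adjusted p = 0.0217).

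Goblet cell genes had 7 of 29 called lower in WT and none higher, with 25 below 0 and a median of −1.01 (−0.19 at day 0). Zg16, the lectin of the mucus layer, was at 1379 and 1503 CPM in WT against 14789.7 and 5512 CPM in Hsf1 null (−2.82 ± 0.54, adjusted p = 0.0307). The mucus protease Clca1 was at 287 and 308 CPM in WT against 3082 and 1232 CPM in Hsf1 null (−2.86 ± 0.46, adjusted p = 0.021). The kallikrein Klk1 was at 212 and 191 CPM in WT against 2347 and 1095 CPM in Hsf1 null (−3.09 ± 0.43, adjusted p = 0.0137). The trypsin inhibitor Spink1 was at 416 and 172 CPM in WT against 2121 and 1212 CPM in Hsf1 null (−2.50 ± 0.45, adjusted p = 0.0258), and Capn9, Fcgbp and Bcas1 had log2 fold changes of −2.19, −2.14 and −2.04. The main mucin Muc2 was at 2515 and 4490.2 CPM in WT against 10878 and 7245 CPM in Hsf1 null and did not pass (adjusted p = 0.116). The genotypes did not overlap in it, as in 54.8% of all genes. The list summed to 12477 to 13124 CPM in WT and 27879 to 50386 CPM in the null mice, while 22 pan-epithelial markers summed to 19123 to 20127 CPM in WT and 27188 to 32693 CPM in the null mice (median −0.47, and 0.14 at day 0, 1 called lower and none higher). The 1 was Phgr1, a gene of the mature gut epithelium, at 598 and 843 CPM in WT against 3428 and 2907 CPM in Hsf1 null (−2.14 ± 0.36, adjusted p = 0.0217). The keratin Krt8 was at 4801 and 5178 against 7506 and 6032 CPM with no call. The part of the epithelial share in the transport and goblet cell results was not tested. Enteroendocrine and tuft cell genes had 0 of 26 called.

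Antimicrobial and host defence genes of the epithelium moved both ways, with 4 of 32 called higher in WT and 3 lower. Reg3b, a lectin that kills bacteria, was at 67.2 and 180.4 CPM in WT against 1.40 and 7.36 CPM in Hsf1 null (4.79 ± 0.75, adjusted p = 0.0198). The nitric oxide synthase Nos2 was at 190.1 and 359 CPM in WT against 24 and 47.9 CPM in Hsf1 null (2.93 ± 0.46, adjusted p = 0.0198). The peroxide-producing oxidase Duox2 was at 118 and 151 against 69.8 and 64.3 CPM, and its partner Duoxa2 at 185 and 182 against 65.9 and 77.7 CPM. On the other side, Mptx1, a pentraxin of the mucosa, was at 3.04 and 1.06 CPM in WT against 194 and 46.4 CPM in Hsf1 null (−5.83 ± 0.85, adjusted p = 0.0158). Reg4 was at 207 and 188 CPM in WT against 754 and 1146 CPM in Hsf1 null (−2.27 ± 0.29, adjusted p = 0.0137), and Zg16 is the third. Sycn, a secretory granule protein that no list held, was at 100.1 and 98 CPM in WT against 5617 and 562 CPM in Hsf1 null, so that null replicate 1 was far above null replicate 2 and both were above WT (−4.96 ± 0.95, adjusted p = 0.0302). Other genes outside the lists with large differences were the alkaline phosphatase Alpl, at 74.5 and 122 CPM in WT against 3.88 and 8.43 CPM in Hsf1 null (3.99 ± 0.43, adjusted p = 0.00638), and Tmem252, at 33.8 and 37.7 CPM in WT against 1.86 and 1.34 CPM in Hsf1 null (4.48 ± 0.44, adjusted p = 0.00631). The transcript 0610005C13Rik was lower in WT, at 1.48 and 1.06 CPM in WT against 45.3 and 9.76 CPM in Hsf1 null (−4.41 ± 0.74, adjusted p = 0.0217).

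Of 30 gasdermin, inflammasome and caspase genes 4 were called lower and none higher. The pore-forming gasdermin Gsdmc3 was at 3.04 and 6.97 CPM in WT against 183 and 81.9 CPM in Hsf1 null (−4.73 ± 0.54, adjusted p = 0.00803). Its close copy Gsdmc2, which may share reads with it, was at 9.05 and 23.1 CPM in WT against 195 and 118 CPM in Hsf1 null (−3.29 ± 0.46, adjusted p = 0.0137). Casp14, a caspase of barrier epithelia, was at 8.00 and 1.37 CPM in WT against 103 and 38.8 CPM in Hsf1 null (−3.88 ± 0.67, adjusted p = 0.0231). Naip1, a sensor of bacterial secretion systems, was at 439.7 and 413 against 1041 and 1229 CPM (−1.41 ± 0.26, adjusted p = 0.0258). The tight junction gene Cldn1 was the 1 call among 26 claudins and junction proteins (3.85%, against 3.17% of all genes). It was higher in WT, at 10.3 and 5.07 CPM in WT against 0.310 and 1.07 CPM in Hsf1 null (3.42 ± 0.71, adjusted p = 0.0371). The plakin Eppk1 was the 1 call among 29 keratins, desmosome and plakin genes (3.45%). It was lower, at 41.8 and 43 CPM in WT against 246 and 95.5 CPM in Hsf1 null (−2.01 ± 0.38, adjusted p = 0.0291). Lists of epithelial renewal had 4.0%, 2.08% and 6.25% of members called, in the order below, against 3.17% of all genes. Stem cell and Wnt target genes had 1 of 25 called higher, Tcf7 at 20.8 and 40.6 against 5.89 and 8.83 CPM. Cell cycle genes had 1 of 48 called higher, the replication factor Gins2 at 24.6 and 16.2 against 4.03 and 4.01 CPM, with a median of 0.54 against 0.65 at day 0. The proliferation marker Mki67 was at 405 and 322 against 157 and 297 CPM and was not called. Of 32 genes linked to epithelial repair 2 were called higher and none lower (median 0.71, and 0.24 at day 0), Ly6c1 and Il33. The membrane-binding Anxa2 was at 2467 and 3114 against 1728 and 2200.0 CPM with no call.

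Cytochrome P450 genes, which oxidise steroids, drugs and fatty acids, had the highest share of members lower in WT among the lists. Of 31 genes in families 1 to 4, 12 were called lower and none higher, with 27 below 0 and a median of −1.50 (−0.33 at day 0). Cyp2d34 was at 157 and 123 CPM in WT against 1174 and 467 CPM in Hsf1 null (−2.55 ± 0.50, adjusted p = 0.031). Cyp2c55 was at 3.57 and 9.19 CPM in WT against 98.3 and 31.3 CPM in Hsf1 null (−3.35 ± 0.61, adjusted p = 0.0258). Cyp2f2 was at 4.09 and 1.69 CPM in WT against 134 and 38.1 CPM in Hsf1 null (−4.87 ± 0.64, adjusted p = 0.0137). The Cyp2d cluster gave 6 of the 12, among them Cyp2d12 at 6.61 and 5.70 against 261 and 47.1 CPM and Cyp2d9 at 21.7 and 10.7 against 225 and 101 CPM, and the pseudogene Cyp2d37-ps was called with them. The Cyp2d genes are close copies, so that their reads may be shared. The called Cyp2d genes with a matched position lie on chromosome 15, the chromosome of Hsf1, at 5.90 to 6.29 Mb from it. Cyp2c67, Cyp2c68, Cyp3a13 and Cyp4f14 were the other calls, with log2 fold changes of −2.99, −2.63, −1.50 and −1.86. The list summed to 472 to 631 CPM in WT and 1401 to 3078 CPM in the null mice.

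The transferases and esterases that act beside them were examined next. Of 35 glucuronosyl, sulfo and glutathione transferases 5 were called lower and none higher (median −0.99, and −0.18 at day 0). Gstm1 was at 218 and 117 CPM in WT against 684 and 555 CPM in Hsf1 null (−1.89 ± 0.39, adjusted p = 0.0357). Gstm6 was at 9.39 and 7.71 against 45.6 and 34.2 CPM and Gstm7 at 6.44 and 4.12 against 28.4 and 18.1 CPM. The phenol sulfotransferase Sult1a1 was at 32.8 and 7.92 CPM in WT against 242 and 89.7 CPM in Hsf1 null (−3.02 ± 0.65, adjusted p = 0.0412). Among 46 carboxylesterases and alcohol or aldehyde dehydrogenases 8 were called lower and 1 higher (median −0.61, and −0.09 at day 0). The ester-cleaving Ces2a was at 4.70 and 2.85 CPM in WT against 169 and 29.4 CPM in Hsf1 null (−4.70 ± 0.71, adjusted p = 0.0183) and Ces1e at 0.870 and 0.422 against 4.81 and 5.08 CPM. Adh5, the dehydrogenase that clears formaldehyde, was the one called higher, at 48.7 and 39.9 CPM in WT against 13.6 and 21.1 CPM in Hsf1 null (1.35 ± 0.29, adjusted p = 0.0398). The flavin monooxygenase Fmo5 was at 14.3 and 9.29 CPM in WT against 49.9 and 51.2 CPM in Hsf1 null (−2.10 ± 0.29, adjusted p = 0.0137).

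Energy metabolism had smaller differences. Of 46 genes of fatty acid oxidation and ketogenesis 4 were called lower and none higher (median −0.42, and −0.09 at day 0), Ppara, the acetyl-CoA synthetases Acss1 and Acss2, and Decr1. Acss2 was at 81.2 and 46.4 CPM in WT against 239 and 155 CPM in Hsf1 null (−1.63 ± 0.33, adjusted p = 0.0344). Of 82 subunits of oxidative phosphorylation 6 were called lower and none higher, with 68 below 0 (median −0.48, and −0.17 at day 0), and Ndufa5 of complex I was at 54.4 and 69.6 CPM in WT against 162 and 147 CPM in Hsf1 null (−1.31 ± 0.23, adjusted p = 0.0232). Among 42 genes of the citric acid cycle and glycolysis 1 was called higher, Pfkfb3, which drives glycolytic flux, at 53.1 and 92.5 CPM in WT against 10.7 and 18.9 CPM in Hsf1 null (2.29 ± 0.47, adjusted p = 0.0357). Of 36 nuclear receptors 2 were called lower, Ppara, a receptor for fatty acids, and the vitamin D receptor Vdr. Ppara was at 4.44 and 1.48 CPM in WT against 25 and 10.7 CPM in Hsf1 null (−2.57 ± 0.56, adjusted p = 0.0442). Vdr was at 106 and 65.4 CPM in WT against 658 and 297 CPM in Hsf1 null (−2.47 ± 0.42, adjusted p = 0.0225). Of 41 bile acid, sterol and lipoprotein genes 3 were called lower, among them 2 efflux pumps. Abcb1a was at 25.4 and 31.5 CPM in WT against 190.2 and 98 CPM in Hsf1 null (−2.34 ± 0.34, adjusted p = 0.0149), and Abcg2 at 27.2 and 34.1 against 64.5 and 75.3 CPM. Fabp6, the bile acid carrier, was the third and had 3 and 3 counts in the WT mice and 39 and 16 in the null mice. Antioxidant genes were the exception in metabolism, with 4 of 25 called higher in WT and none lower (median 0.23, and 0.11 at day 0). Gpx2, the glutathione peroxidase of the gut epithelium, was at 2441 and 3269.6 CPM in WT against 609 and 1097 CPM in Hsf1 null (1.74 ± 0.36, adjusted p = 0.0369). The secreted Gpx3 was at 426 and 374 CPM in WT against 73.8 and 125 CPM in Hsf1 null (2.0 ± 0.28, adjusted p = 0.0137). The extracellular superoxide dismutase Sod3 was at 219 and 279 against 26.5 and 54.6 CPM. The thioredoxin reductase Txnrd1 was at 239 and 273 against 112 and 139 CPM.

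**Figure D3:**
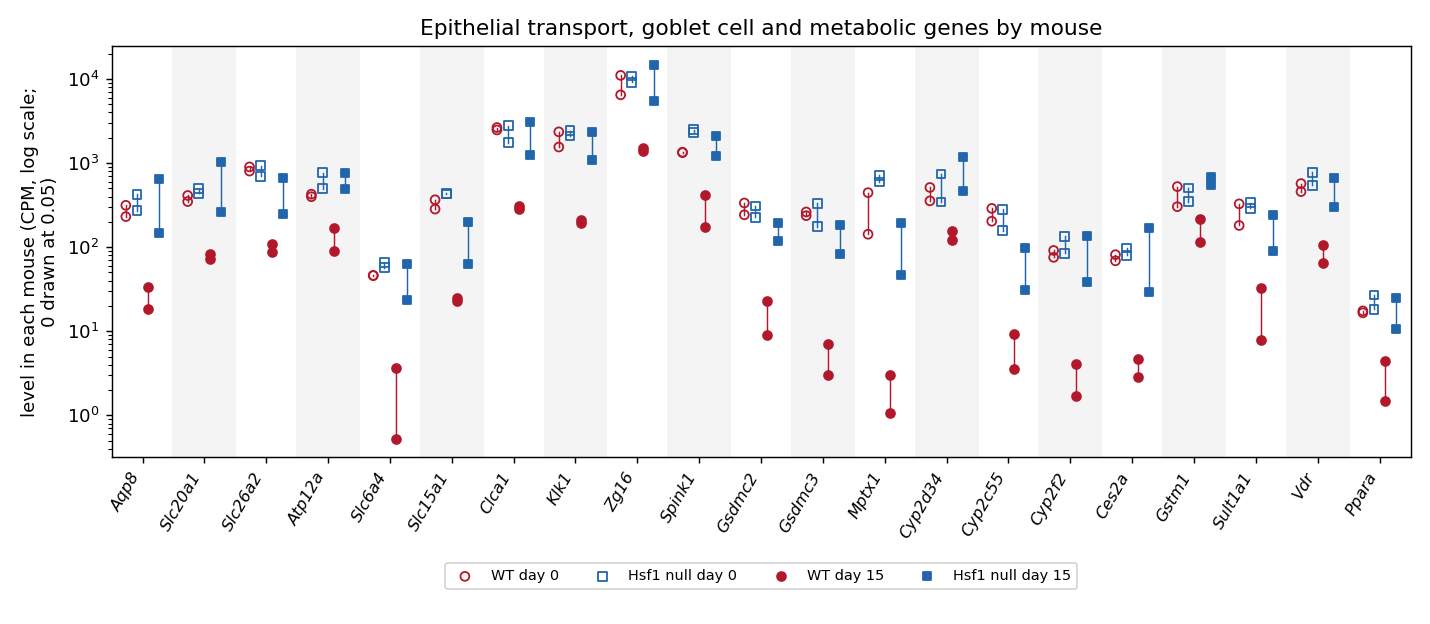
Levels in CPM (log scale) of 21 genes of the epithelium and of metabolism are plotted for every mouse, with the symbols of the plot of inflammatory genes. In each gene the filled blue squares (Hsf1 null, day 15) lie above the filled red circles (WT, day 15), and for Aqp8 they are at 642 and 149 CPM against 18.6 and 33.4 CPM.

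Circadian clock genes were a further group lower in WT. Of 18 tested, 5 were called lower and none higher, with a median of −1.16 against −0.58 at day 0. Dbp, an output factor of the clock, was at 15 and 10.03 CPM in WT against 177 and 73.7 CPM in Hsf1 null (−3.31 ± 0.51, adjusted p = 0.0187). The related Tef was at 58 and 34.3 CPM in WT against 297 and 219 CPM in Hsf1 null (−2.48 ± 0.35, adjusted p = 0.0137). The other 3 belong to the negative limb of the clock. Per3 was at 12.5 and 6.76 against 55.8 and 33.7 CPM (−2.21 ± 0.37, adjusted p = 0.0217). Cry2 was at 32.2 and 16.5 against 106 and 58.7 CPM (−1.75 ± 0.39, adjusted p = 0.0445). Per2 was at 26.6 and 26 against 58.3 and 70.1 CPM (−1.29 ± 0.25, adjusted p = 0.0309). Genes of the opposite phase had values above 0 without passing. Arntl, the partner of CLOCK, was at 24.3 and 20.7 CPM in WT against 8.84 and 7.09 CPM in Hsf1 null (adjusted p = 0.0643). The repressor Nfil3 was at 21.5 and 24.9 CPM in WT against 5.12 and 4.28 CPM in Hsf1 null (adjusted p = 0.0672). Nr1d1 was at 126 and 49.95 CPM in WT against 655 and 206 CPM in Hsf1 null and was not called either (adjusted p = 0.0942). The hour at which a mouse was killed is not given in the sources used here, and its part in these values was not tested. The D-box that DBP, TEF and NFIL3 bind (TTATGNAA or TTNCATAA, both strands) was found in the 250 bases before the start of 2.41% of tested genes with an entry, of 6.97% of those called lower in WT and of 7.69% of those called higher. It is shown in capitals for 3 genes called lower and for Saa3, which was called higher.
Per3 (chr4:151044852-151044881, minus strand, motif starting 205 bases before the start site): cgacccgcgcgTTATGTAAggtactcgggg
Per3 (chr4:151044805-151044834, minus strand, motif starting 158 bases before the start site): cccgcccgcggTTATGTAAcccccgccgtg
Selenbp1 (chr3:94933021-94933050, plus strand, motif starting 51 bases before the start site): cccccaattggTTGCATAAattccctccct
Abcg2 (chr6:58584466-58584495, plus strand, motif starting 56 bases before the start site): cagttgttacgTTTCATAAtgcggtatgat
Saa3 (chr7:46715757-46715786, minus strand, motif starting 99 bases before the start site): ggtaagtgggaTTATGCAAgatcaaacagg
Selenbp1, an oxidase of methanethiol in the colon, was picked for this display after its values were seen, and was at 131 and 88.5 CPM in WT against 2455 and 523 CPM in Hsf1 null (−3.76 ± 0.66, adjusted p = 0.024).

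**Figure D4:**
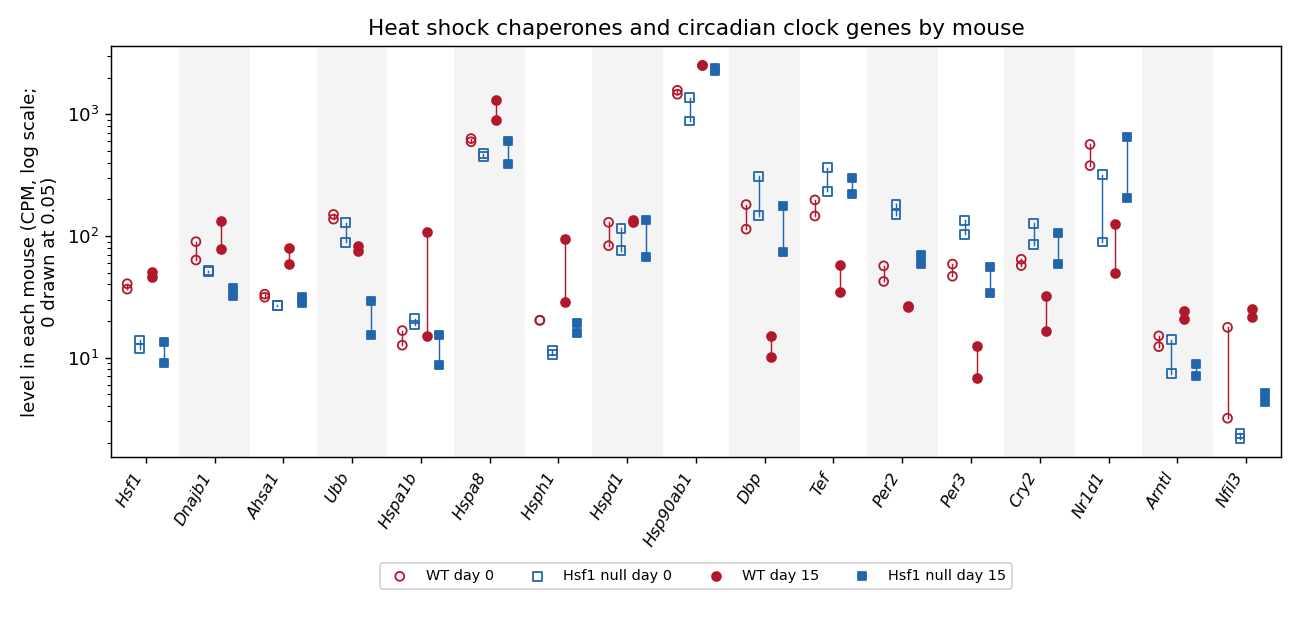
Levels in CPM (log scale) of Hsf1, 8 chaperone and ubiquitin genes and 8 clock genes are plotted for every mouse, with open symbols for day 0 and filled symbols for day 15. Hsf1, Dnajb1, Ahsa1 and Ubb lie higher in WT at day 15, while the day 15 WT mice are the lowest of all 8 mice in Dbp, Tef, Per2, Per3 and Cry2.

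The genes next to Hsf1 were examined last. Hsf1 lies on chromosome 15 (GRCm38, chr15:76477422-76501913, plus strand). Within 1 Mb of it 61 other genes were tested, of which none was called higher in WT and 2 lower (3.28%, against 3.17% of all genes). Within 2 Mb 3 of 93 were higher and 6 lower (9.68%), within 5 Mb 3 of 161 were higher and 6 lower (5.59%), and within 10 Mb 5 of 243 were higher and 14 lower (7.82%). The calls lower in WT between 5 and 10 Mb were the clock gene Tef at a distance of 5.30 Mb, Ppara at 9.23 Mb and the Cyp2d genes Cyp2d9, Cyp2d10, Cyp2d12, Cyp2d26, Cyp2d34 and Cyp2d37-ps at 5.90 to 6.29 Mb. Those within 2 Mb are mostly clusters of related genes. On the side of lower coordinates lies the Ly6 cluster of surface proteins, in which Ly6c2 was at 68.4 and 115 CPM in WT against 4.03 and 11.4 CPM in Hsf1 null (3.56 ± 0.46, adjusted p = 0.0137). Ly6c1 was at 400.4 and 591 CPM in WT against 92.6 and 163 CPM in Hsf1 null (1.95 ± 0.32, adjusted p = 0.0216). Ly6k was at 0.609 and 1.16 against 6.36 and 7.76 CPM (−2.99 ± 0.66, adjusted p = 0.0442). Their log2 fold changes at day 0 were, in this order, 2.22, 0.10 and −3.02. Psca, in the same cluster, had 7 and 0 counts in the WT mice and 71 and 34 in the null mice, and closer to Hsf1 lie 9030619P08Rik at 4.44 and 4.33 against 27.5 and 9.23 CPM and Eppk1. On the other side lie the apolipoprotein L genes, with 2 of 7 called, both lower in WT. Apol10a had 0 and 0 counts in the WT mice and 152 and 74 in the null mice and Apol7c had 0 and 0 counts in the WT mice and 17 and 45 in the null mice, so that neither was detected in the WT mice at this depth. The remaining call was Csf2rb2. Every null mouse carries the deleted allele together with the DNA next to it, so that for genes linked to Hsf1, those at 5 to 10 Mb included, an effect of the deletion and one of linked DNA cannot be told apart. How far the linked DNA reaches was not measured.

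Immediate early genes had 0 of 23 called (median −0.26, and 0.52 at day 0), p53 targets 1 of 24, Phlda3, higher in WT at 41.8 and 30.1 against 8.69 and 11.5 CPM, and 5 ribosomal protein genes none.

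**Figure D5:**
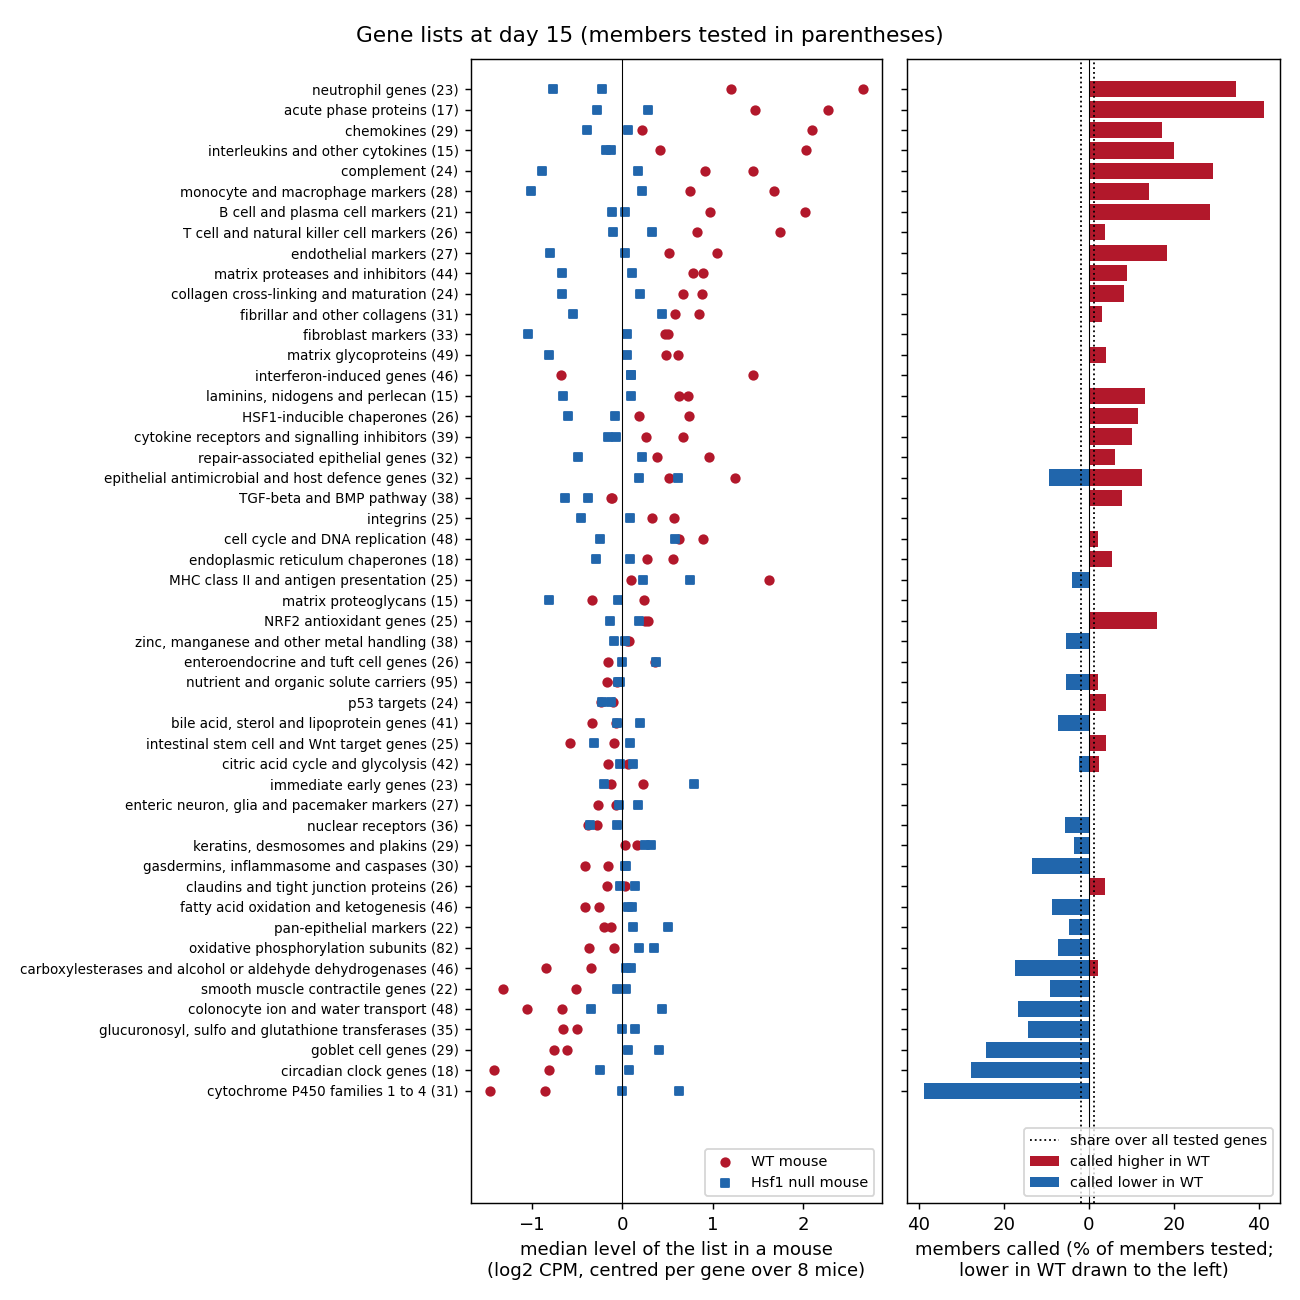
For the lists with 15 or more members tested, the left panel plots the median level of the members in each day 15 mouse (log2 CPM, centred per gene over the 8 mice), with red circles for WT and blue squares for Hsf1 null, and the right panel the share of members called higher (red, to the right) or lower (blue, to the left) in WT. Dotted lines mark the shares over all tested genes, 1.25% and 1.91%, and in the interferon, MHC class II and p53 target lists the 2 WT mice lie on either side of both null mice.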

How the data were processed

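Whole distal colon was sequenced from 8 male mice, 2 for each genotype at day 0 and at day 15, from SENSE mRNA-seq libraries. The authors deposited raw read counts per gene, and per the labels and the study's methods reads were aligned with STAR to mm10. The counting program is not given in the sources used here. A second deposited table, of normalised values, was not used. Samples were grouped by their labels and the comparison is WT day 15 against Hsf1 null day 15.

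Counts were analysed in R 4.3.3 with edgeR 4.0.16 (TMM scaling, quasi-likelihood test of 1 model with 4 groups, two-sided, Benjamini-Hochberg adjustment), as the study tested with DESeq2, which serves here as an alternative (version 1.42.0). Of 15859 genes listed, 14371 with a mean DESeq2-normalised count above 5 were tested. A call needed both an adjusted p below 0.05 and a log2 fold change beyond 1 in size. The SE is the fold change divided by the square root of F. Genes with under 10 counts in a genotype are given by counts, with no fold change. Gene positions are from GENCODE M21 (GRCm38, 14253 of 14371 genes matched) and promoters from RefSeq. Day 15 totals of 7379442 to 11097367 counts limit what low genes can show. The fits were tested on simulated data.

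The 54 gene lists and the samples were chosen with earlier results of these data known, and lists are described by counts and medians without a test. Named were Hsf1, the 10 genes with the largest change in each direction among those with 10 CPM or more and no mention in the paper, up to 4 called genes of a list in its main direction and 2 in the other, the 2 members of highest level in a list, the called members of name stems with 5 or more genes and 25% or more called, and called genes within 2 Mb of Hsf1. The text uses fewer genes than this rule gives. Arntl, Bcas1, Capn9, Cd3e, Cftr, Dnaja1, Epcam, Fcgbp, Hspa1a, Hspa1b, Hspb1, Hspd1, Hspe1, Hsph1, Il1r2, Kcne3, Kcnk5, Lbp, Ms4a1, Nfil3, Per2, Plvap, Prdm1, Reg4, Saa1 and Selenbp1 were chosen after their values were seen. Alternatives were another tool, scaling, filter or threshold, fewer samples, a replicate block, thinning and leaving out each day 15 mouse. Tables of the authors' own comparisons were not used. The result for 1 called gene is not reported here.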

Additional observations from a re-analysis of the deposited data

Results flagged for a closer look

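Slc15a2, a peptide carrier, differed between the genotypes in opposite directions at the 2 time points, which is why it is listed here. At day 15 it had 131 and 149 counts in the WT mice and 1 and 3 in the null mice, and at day 0 7 and 0 counts in WT and 380 and 53 in the null mice. The test of the difference between the days in the edgeR fit gave an adjusted p of 0.00761, the only one under 0.05 among 14371 genes. The groups of 2 mice were too small for a search for single outlying samples.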

How the results depend on the processing

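DESeq2 in place of edgeR called 1208 genes, 556 higher in WT and 652 lower, among them 453 of the 455. An adjusted p under 0.01 left 12, 6 in each direction, and a fit to the 4 day 15 mice alone 6, 5 higher and 1 lower. Leaving out 1 mouse in turn gave 19 to 871 calls, 10 to 349 of them higher and 6 to 522 lower. DESeq2 size factors (449), no filter on low counts (510), filterByExpr (466), no fold threshold (456) and all libraries thinned to the smallest (418) stayed within 1.5 times. WT and null mice share replicate numbers 1 and 2, and no source says that a number marks a shared litter or day. The deviations of same-numbered mice correlated at r = 0.157 over 2 pairs, and with the replicate number as a block (replicate block) 343 genes were called, 128 higher and 215 lower, 306 of them shared with the 455. The share lower in WT was 60.44%, and 53.97% with DESeq2 and 50.14% without WT replicate 1. In 2 fits with few calls most were higher, and the share lower was 31.58% without WT replicate 2 and 16.67% with the day 15 mice alone.

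All 175 called genes named in the text kept their direction under every alternative. Their lack of overlap between the genotypes made this nearly certain in advance. Among named genes that were not called, Hoxb13 not counted, 3 changed sign as single mice were left out. The log2 fold change of Cd177 went from −0.39 to 0.074 (above 0 without WT replicate 2 and without null replicate 2), that of Hspd1 from −0.038 (without null replicate 1) to 0.99 and that of Ms4a1 from −0.52 (without WT replicate 2) to 2.08. Of the 54 lists, 45 kept the sign of their median under every alternative, but the number of members called in a list moved by over 1.5 times in 44 lists without WT replicate 2, 30 without WT replicate 1, 46 without null replicate 1, 25 without null replicate 2, 46 with the day 15 mice alone, 40 with DESeq2 and 14 with the block. List medians moved by more than the spread between mice in 12 to 24 lists as 1 mouse was left out. The 9 others include the interferon-induced genes, from −0.88 to 1.61, and the MHC class II list, from −0.31 to 1.00. The causes were not tested. With 2 mice per genotype the fit borrows its spread from the other groups, and a miss of the threshold does not show equal levels.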

Other observations

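Some genes outside the lists were picked after their values were seen and are given as values. Thyroid hormone deiodinases split. Dio2, which activates the hormone, was higher in WT at 7.13 and 19.7 CPM in WT against 1.24 and 1.87 CPM in Hsf1 null (3.09 ± 0.64, adjusted p = 0.0367). Dio1 was lower at 4.09 and 2.53 CPM in WT against 52.7 and 33.8 CPM in Hsf1 null (−3.69 ± 0.36, adjusted p = 0.00631). The endothelins Edn1 and Edn2, peptides that constrict vessels, were lower, Edn1 at 7.74 and 6.65 against 62.2 and 22.7 CPM and Edn2 at 2.44 and 0.528 against 29.5 and 9.09 CPM. The Notch target Hes1 was lower at 61.7 and 44 CPM in WT against 297 and 182 CPM in Hsf1 null (−2.18 ± 0.32, adjusted p = 0.0161). The Wnt effector Tcf7l2 was at 92.7 and 109 against 341 and 200.1 CPM. The receptors Notch2 and Fzd1 and the Wnt inhibitor Sfrp1 were higher. Notch2 was at 63.9 and 105 against 30.9 and 27.6 CPM, Fzd1 at 47.9 and 65.7 against 17.5 and 22.3 CPM and Sfrp1 at 222 and 208 against 97.3 and 92.7 CPM. The endodermal factors Foxa2 and Foxa3 and the epithelial splicing regulator Esrp1 were lower, with log2 fold changes of −1.68, −1.13 and −1.43. The inflammatory transcription factor Cebpb and the RNase Zc3h12a, which degrades cytokine mRNAs, were higher, Cebpb at 53.1 and 94.8 against 26.8 and 28.2 CPM and Zc3h12a at 158 and 117 against 61.9 and 55.9 CPM.

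Some genes of metabolism, each picked after its values were seen, were lower in WT. Pck1, of gluconeogenesis, was at 19.3 and 5.18 CPM in WT against 138 and 39.5 CPM in Hsf1 null (−2.84 ± 0.66, adjusted p = 0.0492). Oxct1, of ketone use, was at 164 and 163 against 489 and 412 CPM, and the glutamine synthetase Glul at 328 and 302 against 1004 and 668 CPM. Ffar2, a receptor for short-chain fatty acids, was at 12.7 and 17 against 36 and 41.5 CPM. The transglutaminase Tgm3 was at 46.2 and 65 CPM in WT against 1145 and 247 CPM in Hsf1 null (−3.65 ± 0.64, adjusted p = 0.0234). Bhlha15, Sec61a1 and Eif2ak3, which serve secretory cells and the unfolded protein response, were higher in WT. Bhlha15 was at 14.4 and 18.3 against 2.17 and 3.08 CPM, Sec61a1 at 321 and 354 against 152 and 163 CPM and Eif2ak3 at 34.9 and 34.3 against 13.5 and 15.8 CPM.

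Hox genes, whose levels mark position along the gut, had 2 of 28 called lower in WT and none higher, with 4 of 28 above 0 and a median log2 fold change of −1.06. Hoxa5 was at 23.3 and 39.5 CPM in WT against 84.2 and 99.4 CPM in Hsf1 null (−1.55 ± 0.30, adjusted p = 0.031). Hoxd12 was at 2.09 and 1.48 against 16.4 and 4.68 CPM (−2.54 ± 0.57, adjusted p = 0.0457). The hindgut gene Hoxa13 was at 10.7 and 6.86 against 5.89 and 7.22 CPM and was not called. Hoxb13, picked after its values were seen, was at 294 and 123 CPM in WT against 289 and 139 CPM in Hsf1 null and was not called either. By the study's methods the RNA pieces were cut in a set order along the distal colon, counted from the anus. How far single pieces departed from that position is not given in the sources used here, and its part in the genotype difference was not tested.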
